A study of Mus musculus with 12 samples.

Results

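Serotonin, dopamine, noradrenaline and acetylcholine reach the hippocampus from cell groups in the brainstem and basal forebrain, and their receptors set how hippocampal neurons respond to arousal and stress. The receptor genes followed here are the 49 genes, of 23953 in the RNA tables, whose names begin with Htr, Drd, Chrm or Adrb and a digit, or with Chrn or Adra. They comprise 14 serotonin receptor genes, 5 dopamine, 5 muscarinic, 6 alpha-adrenergic and 3 beta-adrenergic receptor genes and 16 nicotinic subunit genes. The nicotinic subunits and the serotonin subunits Htr3a and Htr3b assemble into ion channels opened by the transmitter, and the other genes encode receptors that signal through G proteins.

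The data come from hippocampus of male C57BL/6 mice. The stress group (6 mice) was restrained in a conical tube for 30 min, starting 2 h after lights-on, then kept singly in a clean cage for 1 h, and the control group (5 naive mice) was not restrained. Both groups had brief isoflurane anaesthesia. Animals were pooled in groups of at most 2, giving 3 stress and 3 control pools, for 5-hydroxymethylcytosine (5hmC, the oxidation product of methylated cytosine, which neurons hold in large amounts) and for RNA. Age is postnatal day 28 in the tags and 7 weeks in the protocol. No time of day is given for the control group. Each 5hmC library has its own list of peaks, and RNA has 1 table per group.

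All 10 markers of hippocampal neurons averaged 1 FPKM or more (fragments counted per kilobase of a transcript and per sequencing depth). The dentate marker Prox1 was at 29.1 FPKM in the stress table and 23.8 FPKM in the control table, and Neurod6, of pyramidal neurons, at 40.3 FPKM in the stress and 46.8 FPKM in the control table. None of 8 markers of monoaminergic or cholinergic cell bodies, among them Th, Tph2, Dbh and Chat, had a mean of at least 1 FPKM, and their summed level was 0.345 FPKM in the stress and 0.523 FPKM in the control table. Slc18a3 was listed at 0 in both tables, Chat in the stress and Slc6a4 in the control table. Peak lists held 15195 to 31654 peaks in stress and 16327 to 27916 in control libraries. Read depth per library is not in these lists. Libraries with long lists (stress 2, stress 3 and control 2) stand apart from the other 3, and this touches each 5hmC result below.

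Of the 49 receptor genes, 19 had a mean of at least 1 FPKM over both tables (38.8%, against 46.2% of all genes). Their median level was 2.44 FPKM, and that of all genes past this minimum was 5.44 FPKM. Another 24 genes lay above 0 and below 1 FPKM, 16 of them at 0.1 FPKM or more. Chrna9, Chrna10, Chrnd, Chrng, Drd4 and Htr3b were listed at 0 in both tables, and Chrne and Drd3 at 0 in the control table only. With 1 table per group there is no replicate, so the order of levels is that of these tables, and whether neighbours in it differ beyond the spread between mice cannot be told.

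**Figure D1:**
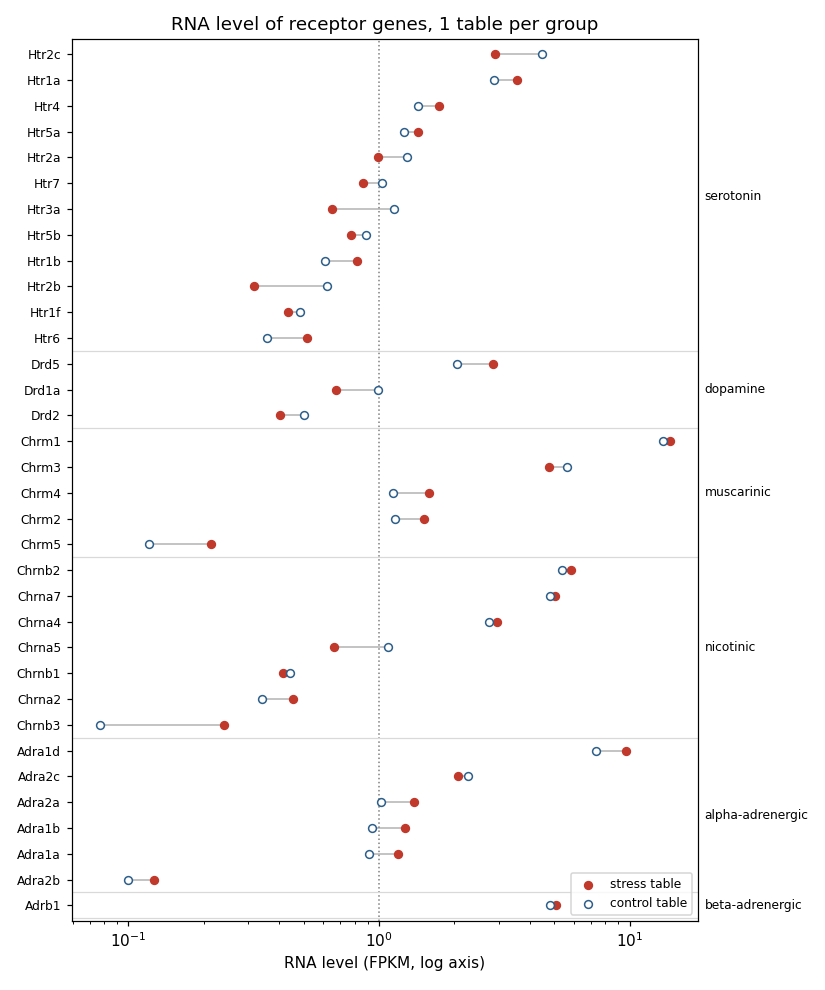
RNA level of 34 receptor genes that averaged 0.1 FPKM or more, in FPKM on a log axis, grouped by family (filled points, stress table; open points, control table; dotted line, 1 FPKM). Chrm1 and Adra1d lie highest, and Htr2c is the highest serotonin receptor gene in the control table.

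Acetylcholine receptors of the muscarinic kind held the highest level. Chrm1, a Gq-coupled receptor that is prominent on hippocampal pyramidal neurons, was at 14.5 FPKM in the stress and 13.5 FPKM in the control table. Chrm3, also Gq-coupled, was at 4.77 FPKM in the stress and 5.64 FPKM in the control table. The Gi-coupled Chrm2 was at 1.51 FPKM in the stress and 1.16 FPKM in the control table, and Chrm4, also Gi-coupled, at 1.58 FPKM in the stress and 1.14 FPKM in the control table. Chrm5, a Gq-coupled receptor, was at 0.214 FPKM in the stress and 0.121 FPKM in the control table. Chrm1 was thus the highest of the 5 in both tables, and Chrm5 the lowest.

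Among the nicotinic subunits, 3 averaged at least 1 FPKM, and they are those of the main neuronal receptors. Chrnb2 was at 5.85 FPKM in the stress and 5.38 FPKM in the control table, and its partner Chrna4 at 2.97 FPKM in the stress and 2.76 FPKM in the control table. Chrna7, which forms channels by itself, was at 5.04 FPKM in the stress and 4.80 FPKM in the control table. Chrna5, an accessory subunit, was at 0.663 FPKM in the stress and 1.09 FPKM in the control table. Chrna3 and Chrnb4, known from ganglia and the habenula, stayed under 0.1 FPKM in both tables. The muscle subunits Chrna1, Chrnd, Chrne and Chrng were under 0.1 FPKM in both tables, while Chrnb1, also a muscle subunit, was at 0.413 FPKM in the stress and 0.442 FPKM in the control table.

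Adrenergic receptor RNA was led by Adra1d, a Gq-coupled receptor, at 9.69 FPKM in the stress and 7.34 FPKM in the control table. Adrb1, the Gs-coupled receptor through which noradrenaline raises cAMP, was at 5.09 FPKM in the stress and 4.80 FPKM in the control table. Adrb3 was at 0.0127 FPKM in the stress and 0.130 FPKM in the control table. The Gi-coupled Adra2c was at 2.07 FPKM in the stress and 2.27 FPKM in the control table, and Adra2a at 1.38 FPKM in the stress and 1.02 FPKM in the control table. Adra1a was at 1.19 FPKM in the stress and 0.912 FPKM in the control table, and Adra1b at 1.28 FPKM in the stress and 0.940 FPKM in the control table. Adra2b was at 0.126 FPKM in the stress and 0.0998 FPKM in the control table.

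For serotonin, Htr2c (Gq-coupled) was at 2.92 FPKM in the stress and 4.47 FPKM in the control table. Htr1a, the Gi-coupled receptor on pyramidal neurons that is also the autoreceptor of raphe neurons, was at 3.56 FPKM in the stress and 2.88 FPKM in the control table. The Gs-coupled Htr4 was at 1.73 FPKM in the stress and 1.43 FPKM in the control table, and Htr5a at 1.43 FPKM in the stress and 1.26 FPKM in the control table. Htr2a, the Gq-coupled target of classical hallucinogens, was at 0.988 FPKM in the stress and 1.29 FPKM in the control table. The channel subunit Htr3a, a marker of a class of interneurons, was at 0.650 FPKM in the stress and 1.14 FPKM in the control table. Of the dopamine receptors, the Gs-coupled Drd5 was the only one past 1 FPKM, at 2.84 FPKM in the stress and 2.04 FPKM in the control table. Drd1a, its close relative, was at 0.673 FPKM in the stress and 0.994 FPKM in the control table, and the Gi-coupled Drd2 at 0.401 FPKM in the stress and 0.501 FPKM in the control table.

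The RNA comparison asked which receptors differed 1 h after restraint, on the scale log2((stress + 1)/(control + 1)), which understates the change of low genes. None of the 19 kept receptor genes was past 1.5-fold on this scale, where 1.18% of all 11071 genes past the 1 FPKM minimum were higher and 0.894% lower. At 1.2-fold, 3 of the 19 kept receptor genes were higher (background 12.9% of all genes) and 1 was lower (background 5.25%). These are 15.8% and 5.26% of the kept receptor genes, close to the background in both directions at this pseudocount of 1. The 3 higher genes were Adra1d, with a log2 difference of 0.36, Drd5 with 0.34 and Chrm4 with 0.27. Centred on the median of all genes, only Adra1d stayed past 1.2-fold among the higher genes (background 6.36%). In that setting 3 of the 19 were lower (background 9.18%). With a pseudocount of 0.1, 8 of the 19 were higher, a larger share than the 19.2% of all genes, and 2 were lower (background 7.86%). The median log2 difference was 0.11 over the 19 receptor genes and 0.08 over all genes, and 12 of the 19 lay above the median of all genes.

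Htr2c had the lowest difference of the 19, at -0.48 on the log2 scale, or 1.40-fold lower on that scale in the stress table. With a pseudocount of 0.1 its difference was -0.60, which is past 1.5-fold lower. Its RNA is known to be very abundant in the choroid plexus, the secretory tissue beside the hippocampus. Of 10 choroid plexus markers, 6 passed the 1 FPKM minimum, and each of these was past 1.2-fold lower in the stress table (median log2 difference -1.12). The whole list summed to 65.9 FPKM in the stress and 236 FPKM in the control table, and the defining marker Ttr was at 59.5 FPKM in the stress and 217 FPKM in the control table. No marker of the list was at 0. The part of choroid plexus in the Htr2c difference was not tested. In such bulk tissue, fewer cells of a type and less RNA per cell cannot be told apart.

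**Figure D2:**
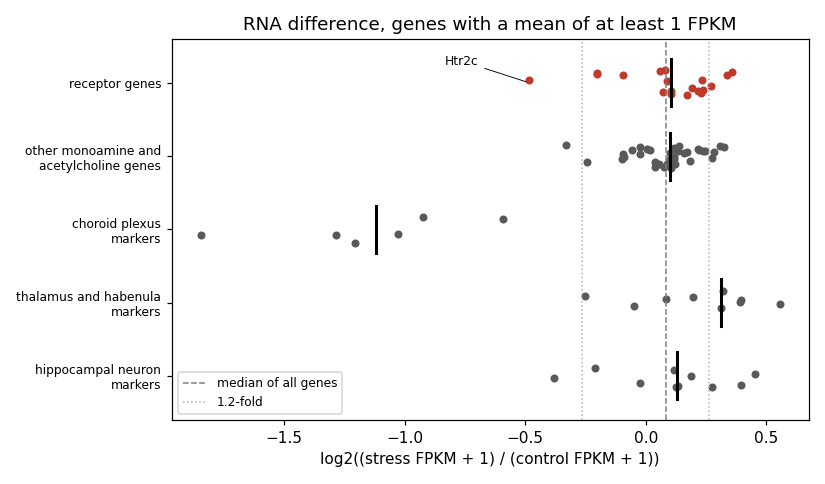
RNA difference of genes that passed the 1 FPKM minimum, as log2((stress + 1)/(control + 1)); each point is a gene, black bars are medians, the dashed line is the median of all genes and dotted lines mark 1.2-fold. The 19 receptor genes and 38 other monoamine and acetylcholine genes centre at 0.11 and 0.10, Htr2c lies at -0.48, and the choroid plexus markers centre at -1.12.

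The thalamus and habenula border the hippocampus. Of 9 of their markers past the 1 FPKM minimum, 5 were past 1.2-fold higher in the stress table, none was past 1.2-fold lower, and 4 lay within 1.2-fold, among them Tcf7l2 at 4.82 FPKM in the stress and 5.02 FPKM in the control table, while the list of 13 summed to 50.9 FPKM in the stress and 40.1 FPKM in the control table, with none at 0. Chrnb3, a nicotinic subunit of the habenula and of dopamine neurons, was at 0.240 FPKM in the stress and 0.0772 FPKM in the control table, below the 1 FPKM minimum. Of 6 striatal markers, 3 had a mean of at least 1 FPKM and 1 was lower, and they summed to 9.65 FPKM in the stress and 11.2 FPKM in the control table. Only Ido1 among them was at 0, in the stress table. The part of neighbouring tissue in the receptor values was not tested.

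Other genes of these pathways were past 1.2-fold no more often than all genes were. Of 58 listed genes for synthesis, breakdown, transport, histamine and trace amine receptors, G proteins, receptor desensitisation, effectors and nicotinic chaperones, 38 had a mean of at least 1 FPKM, 4 were past 1.2-fold higher and 1 lower, beside the backgrounds of 12.9% and 5.25%. The higher genes were Gnai3, an inhibitory G protein subunit (8.61 FPKM in the stress and 6.68 FPKM in the control table), and Kcnj6, a potassium channel opened by Gi-coupled receptors (17.9 FPKM in the stress and 14.3 FPKM in the control table). Adrbk2, a kinase that desensitises activated receptors, was at 8.72 FPKM in the stress and 7.02 FPKM in the control table, and Slc29a4, a low-affinity monoamine transporter, at 3.29 FPKM in the stress and 2.53 FPKM in the control table. The lower gene was Hrh3, the Gi-coupled histamine receptor, at 3.65 FPKM in the stress and 4.85 FPKM in the control table. Centred on the median of all genes, none of the 4 stayed past 1.2-fold.

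Isoform estimates were less steady than the sums. The sum for Chrm1 was 14.5 FPKM in the stress and 13.5 FPKM in the control table, yet 1 of its 2 isoforms was at 7.65 FPKM in the stress and 2.65 FPKM in the control table, and the other at 6.83 FPKM in the stress and 10.9 FPKM in the control table. For Drd1a, nearly all of the level sat on a different isoform in each table, the first at 0.672 FPKM in the stress and 0.00146 FPKM in the control table, the second at 0.000169 FPKM in the stress and 0.993 FPKM in the control table. Strand was not stated for the RNA libraries. Htr2b lies within the span of Psmd1, so reads of these genes may not be told apart.

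The 5hmC comparison asked where peaks lay over the receptor genes and whether their presence differed with stress. For each gene a window was taken of its body and 20 kb on either side (mm9), with a median length of 53.1 kb for receptor genes and 54.5 kb for all genes. Overlapping peaks of the 6 lists were merged into regions, 133 of which fell in receptor windows. Of these, 70 touched a receptor body, 34 of them on an exon and 36 in an intron. The other 63 lay in the flanks, 26 of them over the body of another gene. One region lay in the windows of several members, the neighbours Chrna3, Chrna5 and Chrnb4.

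More receptor genes had a peak in each of the 3 long lists than in each of the 3 short ones. The number was 18, 35 and 35 in stress 1, 2 and 3, and 17, 30 and 13 in control 1, 2 and 3. These are 29.3 ± 9.81 of 49 genes for stress and 20.0 ± 8.89 for control (SD over 3 libraries each), and the groups overlap. The mean share of a receptor window under peaks was 1.71% ± 0.881 in stress and 0.871% ± 0.681 in control libraries, and over all genes it was 1.94% ± 0.750 in stress and 1.18% ± 0.501 in control libraries. Relative to all genes in the same library, receptor windows thus held 0.842 ± 0.163 of the coverage in stress and 0.674 ± 0.234 in control libraries. In the 3 long lists this ratio was 0.927 (stress 2), 0.944 (stress 3) and 0.944 (control 2), and in the 3 short lists 0.655 (stress 1), 0.548 (control 1) and 0.530 (control 3). The ratio was thus higher in the 3 long lists than in the 3 short ones. Over gene bodies alone the mean ratio was 1.56 in stress and 0.705 in control libraries. Short bodies with a peak weigh heavily in this mean of percentages. In stress 3, peaks covered 54.4% of the Chrm4 body (7.64 kb), 47.8% of Chrm5 (1.75 kb) and 40.9% of Chrne (4.31 kb). The part of such short bodies in the body ratio was not tested, and the ratio is not read as a shift over most receptor genes.

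**Figure D3:**
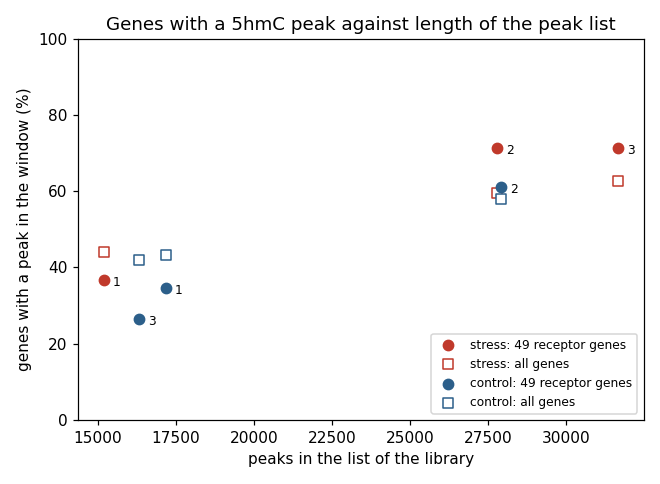
Percentage of genes with a 5hmC peak in the window against the number of peaks in the list, for the 49 receptor genes (circles, numbered by replicate) and all genes (squares). The 3 libraries with short lists hold 26.5% to 36.7% of the receptor genes, and the 3 with long lists 61.2% to 71.4%.

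Few regions were shared by many libraries, at the receptor genes as in the whole series. A single library held 77 of the 133 regions (57.9%, against 56.9% of all 74450 regions), and 13 had a peak in 4 or more libraries. Of the receptor regions, 7.52%, 1.50% and 0.752% were in 4, 5 and 6 libraries, against 6.08%, 3.26% and 1.63% of all regions. Stress libraries alone held 56 regions (42.1%, against 37.8% of all regions) and control libraries alone 31 (23.3%, against 30.1%). All 3 stress libraries had 9 of the regions (6.77%, against 6.82%) and all 3 control libraries 2 (1.50%, against 4.0%). Of the receptor genes with a region, 34 had a higher and 8 a lower mean coverage in stress libraries, 81.0% higher beside 72.7% of all genes with a peak.

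**Figure D4:**
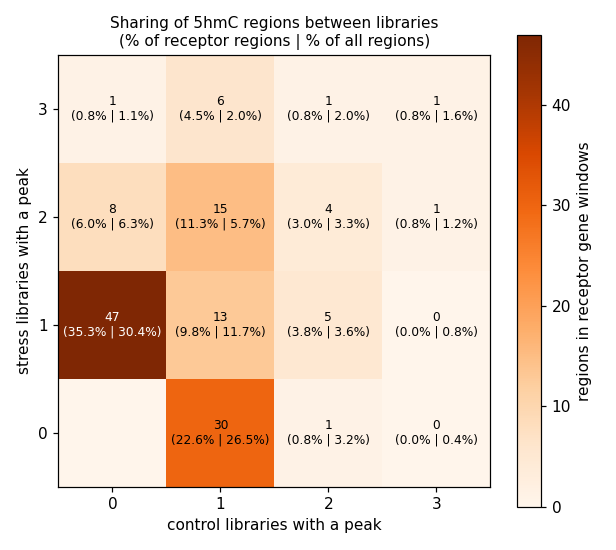
Number of 5hmC regions in receptor windows by how many stress and control libraries had a peak there, with the percentage of the 133 receptor regions and, after the vertical line, of all regions. Most regions sit in the cells for a single library (47 stress, 30 control), and 1 region was in all 3 stress and no control library.

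One receptor gene, 2.04% of the 49, had a region with a peak in every stress and no control library in its window, against 5.01% of all genes. None had a region found in all control and no stress library, against 1.2% of all genes, though 1 did without control replicate 1 (2.04%, against 4.90% of all genes). The single stress-only region lay near Chrna9, a nicotinic subunit best known from the hair cells of the inner ear, which was listed at 0 in both RNA tables. It spans chromosome 5 from 66371767 to 66373749 (mm9), 3041 bp beyond the end of Chrna9 and 5417 bp from 9130230L23Rik. Its peak stood within the top 59.4%, 34.1% and 0.964% of scores in the lists of stress 1, 2 and 3. Without stress replicate 1, 8 receptor genes had such a region (16.3%, against 17.4% of all genes), without stress replicate 2 there were 2 (4.08%, against 9.47%), and without control replicate 2 there were 7 (14.3%, against 10.5%). Coverage of the whole Chrna9 window was 1.68%, 8.03% and 3.93% in stress 1, 2 and 3, against 0%, 6.72% and 1.48% in control 1, 2 and 3, and these groups overlap.

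All 6 receptor regions that were in every stress library and 1 control library had that control peak in control 2, the control with the longest list. Over all regions of this kind, 68.7% of 1515 had it there. Among the genes near or over these regions were Adra2c, Chrm1, Htr1d, Htr1f and Htr5a. With control 2 left out of account, 7 of 49 receptor genes (14.3%) had a region in every stress library and in neither of the other controls, against 10.5% of all genes. The region in Chrm1 (chromosome 19, 8751893 to 8753539) lay on an exon. The region at Htr1f (chromosome 16, 64925804 to 64926925) lay on the exon at the far end of the gene, and that at Htr5a (chromosome 5, 28168704 to 28169885) began 217 bp after the start. The regions of Adra2c and Htr1d lay in the flanks, 1639 bp and 34196 bp from the start.

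The share of the window under peaks was compared for all genes with an exact two-sided permutation test over the 20 assignments of the libraries. Its smallest p is 0.1, so no gene can pass 0.05, and the smallest p adjusted over the 18222 genes with a peak was 0.860. A p of 0.1 here means only that the groups do not overlap. Coverage was higher in every stress than in every control library for 3 of 42 receptor genes with a peak (7.14%), against 10.5% of all genes. None was lower in this way, against 1.1% of all genes. The receptor genes thus did not exceed the background in either direction.

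Chrne, the subunit of adult muscle receptors, had 8.14%, 8.79% and 10.8% in stress 1, 2 and 3, against 2.12%, 5.77% and 5.47% in control 1, 2 and 3 (exact permutation p = 0.1, Benjamini-Hochberg adjusted over all genes 0.860). Means were 9.24% ± 1.39 for stress and 4.46% ± 2.03 for control (SD, n = 3 each), and the groups do not overlap. Its longest region, 3022 bp, had a peak in all 6 libraries and lay in the body of the neighbouring kinase gene Mink1. A second region, on exons of Chrne and over 4930544D05Rik, was in stress 1 and 3. Chrna1, the muscle alpha subunit, had 1.47%, 4.06% and 3.19% in stress 1, 2 and 3, against 1.19%, 0% and 0% in control 1, 2 and 3 (exact permutation p = 0.1, adjusted 0.860).

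These calls changed with the libraries and the lists used. Chrna1 and Chrne were separated with all 6 libraries, so they must stay separated when any library is left out, and this adds no support. Without stress replicate 1, 15 receptor genes were higher in every stress library (36.6% of those with a peak, against 31.7% of all genes), and without control replicate 2 there were 8 of 42 (against 23.6% of all genes). In the lower direction 1 gene was called without stress replicate 2 (Chrna2, against 2.78% of all genes), without control replicate 1 (Adra2b, 3.43%) and without control replicate 3 (Htr2b, 3.64%). When every list was cut by score to an equal covered length, Chrna9 and Chrne were higher (5.56%, against 7.98% of all genes), and Chrna2 was lower in every stress library (2.78%, against 3.43%). Relative to all gene windows of the library, neither Chrna1 nor Chrne stayed higher in every stress library, and Chrm2 and Chrna2 were lower (4.76%, against 6.14% of all genes). Within gene bodies alone none was separated in either direction.

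**Figure D5:**
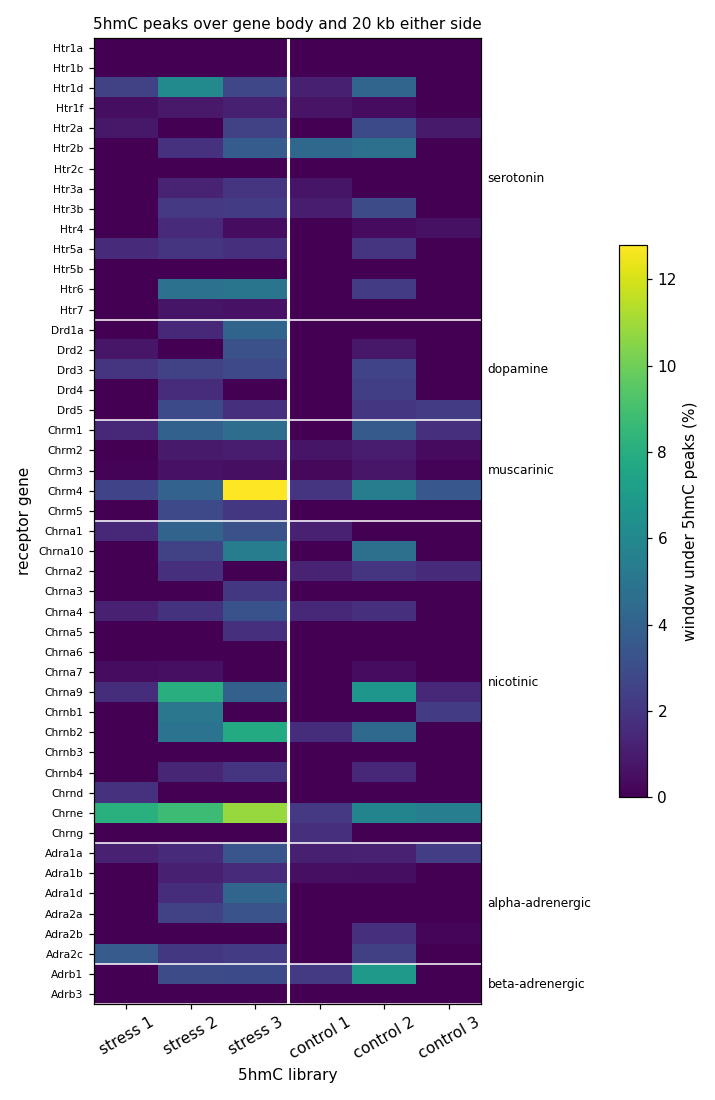
Percentage of the window of 48 receptor genes (body and 20 kb either side) under 5hmC peaks in the 6 libraries, by family. Chrm4 in stress 3 (12.8%) and Chrne in the stress libraries (8.14% to 10.8%) are highest, and 7 genes are at 0 in every library.

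Muscarinic windows averaged 0.827%, 2.48% and 4.20% in stress 1, 2 and 3, against 0.591%, 2.16% and 1.15% in control 1, 2 and 3, and all 5 had a region. Chrm4 had the longest region in any receptor window, 4156 bp over an exon (chromosome 2, 91765266 to 91769421), with peaks in all libraries but control 1. All regions of the Chrm4 window together covered 2.57%, 4.02% and 12.8% of it in stress 1, 2 and 3, against 1.95%, 5.40% and 3.48% in control 1, 2 and 3. The groups overlap (exact permutation p = 0.6, adjusted 1), and without stress replicate 3 the difference was -0.314 percentage points, against 2.85 with it. Chrm1 had 1.45%, 3.99% and 4.59% in stress 1, 2 and 3, against 0%, 3.63% and 1.73% in control 1, 2 and 3. Chrm2 had 0%, 0.921% and 1.03% in stress 1, 2 and 3, against 0.739%, 0.968% and 0.397% in control 1, 2 and 3. Neither gene's groups are apart. Chrm5 had 0%, 2.83% and 2.07% in stress 1, 2 and 3 and no peak in control libraries, so the groups overlap at 0. Chrm3, whose window of 524 kb is the longest of all 49, had a peak in all 6 libraries but at most 0.776% coverage, in control 2.

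Nicotinic windows averaged 0.918%, 2.43% and 2.50% in stress 1, 2 and 3, against 0.587%, 1.70% and 0.673% in control 1, 2 and 3, with a region in 14 of 16 genes. Chrnb2 had 0%, 4.88% and 7.80% in stress 1, 2 and 3, against 1.67%, 4.38% and 0% in control 1, 2 and 3, and the groups overlap. Chrna7 had 0.426%, 0.542% and 0% in stress and 0%, 0.437% and 0% in control 1, 2 and 3. Chrna4 had 1.15%, 1.87% and 3.20% in stress and 1.48%, 1.74% and 0% in control 1, 2 and 3, all of it outside the gene body. Chrna2, a subunit of a class of interneurons, was among the few with less coverage in stress, at 0%, 1.79% and 0% in stress 1, 2 and 3, against 1.21%, 1.96% and 1.52% in control 1, 2 and 3 (exact permutation p = 0.3, adjusted 0.910). Chrng, the subunit of fetal muscle receptors, had 1.72% in control 1 and no peak in the other 5 libraries.

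Alpha-adrenergic windows averaged 1.58% ± 0.814 for stress and 0.560% ± 0.366 for control (SD, n = 3 each). Adra1a had a peak in all 6 libraries, with 1.18%, 1.55% and 3.38% in stress 1, 2 and 3, against 1.13%, 1.18% and 2.34% in control 1, 2 and 3. One of its intronic regions (chromosome 14, 67285092 to 67286434) was in every library but stress 2. Adra1d had 0%, 1.70% and 4.18% in stress 1, 2 and 3 and no peak in the control libraries. Adra2a had 0%, 2.51% and 3.27% in stress and likewise none in control libraries. Both have a stress library at 0, so the groups overlap. Adra1b had 0%, 1.14% and 1.50% in stress 1, 2 and 3, against 0.531%, 0.484% and 0% in control 1, 2 and 3. Adra2c had 3.69%, 2.07% and 2.27% in stress 1, 2 and 3, against 0%, 2.41% and 0% in control 1, 2 and 3. Adra2b had no peak in stress libraries, against 0%, 1.76% and 0.223% in control 1, 2 and 3. Among the beta genes, Adrb1 had 0%, 2.98% and 2.88% in stress 1, 2 and 3, against 2.18%, 6.93% and 0% in control 1, 2 and 3. Its difference was -1.08 percentage points, and 0.864 without control replicate 2.

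Dopamine windows averaged 1.54% ± 0.922 for stress and 0.666% ± 0.798 for control (SD, n = 3 each), and all 5 genes had a region. Drd3, at 0.0291 FPKM in the stress table and listed at 0 in the control table, had 1.99%, 2.48% and 2.82% in stress 1, 2 and 3, against 0%, 2.56% and 0% in control 1, 2 and 3. Drd5, the highest expressed, had 0%, 2.86% and 1.79% in stress and 0%, 2.01% and 2.24% in control 1, 2 and 3. Coverage in Drd1a was 0%, 1.47% and 4.13% in stress 1, 2 and 3 and 0% in all control libraries. Over all 49 receptor genes, mean FPKM and mean coverage had a Spearman rho of 0.02 (49 genes of the same libraries, which are not independent replicates).

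Serotonin windows averaged 1.16% ± 0.675 for stress and 0.691% ± 0.661 for control (SD, n = 3 each), with a region in 10 of 14 genes. Htr1d had 2.46%, 6.05% and 2.74% in stress 1, 2 and 3, against 1.11%, 4.18% and 0% in control 1, 2 and 3. Htr6, a Gs-coupled receptor, had 0%, 4.83% and 4.98% in stress and 0%, 2.22% and 0% in control 1, 2 and 3. Htr2b had 0%, 1.84% and 3.70% in stress 1, 2 and 3, against 4.34%, 4.73% and 0% in control 1, 2 and 3, and all 4 regions of its window lie over Psmd1. Htr2a had 0.805%, 0% and 2.55% in stress 1, 2 and 3, against 0%, 2.86% and 0.933% in control 1, 2 and 3. Htr4 stayed at or under 1.56%, its value in stress 2. Htr5a had a single region in its window, with 1.59%, 1.98% and 1.79% in stress 1, 2 and 3, against 0%, 1.96% and 0% in control 1, 2 and 3.

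No region was found in the windows of 7 receptor genes, 14.3% against 23.7% of all genes. They were Htr1a, Htr1b, Htr2c, Htr5b, Adrb3, Chrna6 and Chrnb3. The lists start at a score of 50, so 5hmC below that score would not appear in them. Htr1a and Htr2c were well expressed among the receptor genes, while Chrna6 was under 0.1 FPKM in both tables. The window of Htr2c spans 275 kb, exceeded only by that of Chrm3. It is the only receptor gene on the X chromosome, where 94.1% of 68 genes with a window of at least 200 kb had no region, against 9.98% of all 1283 genes with such a window.

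A region lay within 1 kb of a start site in 10 receptor genes (20.4%, against 15.4% of all genes). Among them were Adra1a, Adra1b, Chrm5, Chrna1, Chrne, Drd1a, Drd5, Htr2b and Htr5a. The start itself was under a peak in 2 of them, Chrna1 (stress 1, stress 2 and control 1) and Chrm5 (stress 3 only). 5hmC forms on methylated cytosine, which in mammals sits mostly in CG pairs, so promoters are shown with each CG in capitals. They are those of Chrna1 and Chrm5, with a region over the start, of Htr5a, with a region just after it, and of Htr1a and Htr2c, with no region in the window. Each runs from 250 bases before to 50 after the start, 5′ to 3′ on the gene's strand, from RefSeq on GRCm38.p6, a build other than the mm9 of the peaks. The positions are chr2:73580289-73580588 (minus strand) for Chrna1, chr2:112480768-112481067 (minus) for Chrm5, chr5:27841697-27841996 (plus) for Htr5a, chr13:105443443-105443742 (plus) for Htr1a and chrX:146962263-146962562 (plus) for Htr2c.
Chrna1: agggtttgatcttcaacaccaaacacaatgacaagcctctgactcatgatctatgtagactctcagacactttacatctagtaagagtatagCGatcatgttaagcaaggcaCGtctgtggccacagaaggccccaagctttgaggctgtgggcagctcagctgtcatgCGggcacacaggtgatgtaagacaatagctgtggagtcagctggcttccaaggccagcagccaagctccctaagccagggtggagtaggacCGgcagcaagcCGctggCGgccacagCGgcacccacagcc
Chrm5: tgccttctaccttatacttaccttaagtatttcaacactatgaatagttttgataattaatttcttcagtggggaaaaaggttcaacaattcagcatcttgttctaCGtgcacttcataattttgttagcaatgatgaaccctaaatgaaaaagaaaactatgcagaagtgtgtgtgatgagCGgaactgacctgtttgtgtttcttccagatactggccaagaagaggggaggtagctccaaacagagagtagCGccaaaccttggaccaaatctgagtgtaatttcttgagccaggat
Htr5a: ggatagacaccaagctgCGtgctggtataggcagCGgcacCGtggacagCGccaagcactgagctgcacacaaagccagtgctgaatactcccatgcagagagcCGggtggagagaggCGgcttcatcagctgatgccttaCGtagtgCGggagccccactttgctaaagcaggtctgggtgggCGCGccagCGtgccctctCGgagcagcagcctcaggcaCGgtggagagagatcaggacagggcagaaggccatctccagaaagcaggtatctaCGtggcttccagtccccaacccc
Htr1a: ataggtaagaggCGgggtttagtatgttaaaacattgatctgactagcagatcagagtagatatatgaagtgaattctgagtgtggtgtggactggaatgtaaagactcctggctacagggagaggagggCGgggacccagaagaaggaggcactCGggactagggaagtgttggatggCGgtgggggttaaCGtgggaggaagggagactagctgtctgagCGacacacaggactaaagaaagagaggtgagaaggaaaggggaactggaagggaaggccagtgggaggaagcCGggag
Htr2c: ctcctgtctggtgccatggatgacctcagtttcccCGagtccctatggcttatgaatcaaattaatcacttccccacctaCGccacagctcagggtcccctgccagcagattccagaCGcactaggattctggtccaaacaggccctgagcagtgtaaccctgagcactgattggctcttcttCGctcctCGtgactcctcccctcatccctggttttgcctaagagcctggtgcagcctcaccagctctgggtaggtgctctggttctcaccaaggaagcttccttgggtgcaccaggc

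These promoters held 7 CG pairs in Chrna1, 3 in Chrm5, 14 in Htr5a, 7 in Htr1a and 5 in Htr2c. The letters searched were CG, which read the same on both strands, and 94.6% of all promoters in the table held at least 1. The promoter table matched 37 of the 49 receptor genes, and where a gene had several promoters the one with the most CG was taken. The median was 10.5 CG in the 8 matched genes with a region within 1 kb of a start and 15 in the other 29, with ranges of 1 to 38 and 1 to 46. Over all 27025 genes in the table it was 8. The ranges of CG content thus overlap between receptor promoters with and without a nearby region, while the median was lower in the 8 genes with one. This difference was not tested.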

How the data were processed

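The authors deposited 1 peak list per 5hmC library, with positions and a score per peak, and for RNA a Cufflinks table of each group that gives FPKM by RefSeq transcript. Fragments were sonicated to 300 bp, per the labels' protocols. The submitters' processing notes name mm9, Bowtie 0.12.9, TopHat 1.0.12, Cufflinks 2.1.1, Cuffdiff 2.1.1 and edgeR. Peak names in the deposited lists are of the MACS form. Its version, any input library, the depth of single libraries and how RNA pools were combined are not given in the sources used here. Peaks were ranked by the deposited score, within a list only.

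From 1 to 4 peaks per library lay outside chromosomes 1 to 19, X and Y and were dropped. Regions join peaks that share 1 bp or more. Groups were compared by exact permutation over libraries, adjusted by Benjamini-Hochberg over all genes, whose p-values measure the spread between pools. FPKM of isoforms were summed per gene, with a pseudocount of 1. Python 3.11.15, numpy 2.4.6 and pandas 2.3.3 were used. As a check of the code, 200 stress-only regions were planted in the stress lists, away from every peak, and all 200 were recovered. This checks the overlap step only and does not measure sensitivity in these data.

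The members and lists were chosen with earlier results of these data known. The naming rule took members with a mean of at least 1 FPKM, with a region found in 1 group only or near a start, and the 5 highest and 5 lowest in RNA and in coverage difference. Others were added after their values were seen. Alternatives were equal numbers of peaks, equal covered length, the higher-scoring 50% of each list, other flanks (0 and 5 kb), regions covered by at least 50%, bridged gaps, coverage relative to the library, each library left out, replicate numbers as blocks and, for RNA, a pseudocount of 0.1, other minimum levels, centring and the most abundant isoform. Windows sharing a region were left out in an alternative added after seeing the data. One member is counted with the others but is not reported here by name.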

Additional observations from a re-analysis of the deposited data

How the results depend on the processing

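Of the 11 receptor genes whose coverage difference was followed through 132 alternatives, the direction held in 119, the difference was 0 in 8 (for Htr6, Adrb1 and Chrng) and it turned in 5. It turned for Adrb1 with the higher-scoring 50% of each list (0.233 percentage points), with 5 kb flanks (0.475) and without control replicate 2 (leave-one-out range -2.60 to 0.864), for Htr2b within the gene body (0.789) and for Chrm4 without stress replicate 3 (range -0.314 to 4.80). The replicate block cannot change these differences, and leaving out a library cannot turn them where the groups do not overlap. The 119 thus include alternatives that could not turn. The 11 genes are those with the highest and lowest differences, and Chrna9 for its stress-only region. Leaving out each library gave 1 to 8 receptor genes with a stress-only region (6.09% to 17.4% of all genes) and 0 to 1 with a control-only region (1.60% to 4.90%). It gave 3 to 15 higher in every stress library (12.7% to 31.7% of all genes) and 0 to 1 lower (1.52% to 3.64%). With the same number of peaks, 2 genes were higher (5.41%, against 9.87% of all genes) and 1 was lower (2.70%, against 2.21%). With the same covered length, 2 were higher (5.56%, against 7.98%) and 1 was lower (2.78%, against 3.43%). With the higher-scoring 50% of each list, 0 genes had a stress-only region and 1 was higher (2.87% and 8.30% of all genes). Within gene bodies the counts were 0 and 0 (2.44% and 7.49% of all genes). Coverage relative to all genes was 1.56 in stress and 0.705 in control libraries there, a mean in which short bodies weigh heavily. With 5 kb flanks it was 1.06 in stress and 0.662 in control libraries. Coverage relative to the library gave 1 higher and 2 lower (5.55% and 6.14% of all genes). Whether replicate numbers pair the libraries cannot be told from these weak correlations of deviations (0.158, 0.0662 and -0.0775 for numbers 1, 2 and 3). Stress 1 and stress 2 correlated best with the control of their own number, and stress 3 with control 2 (0.141). With the replicate block, 8 genes were higher and 1 lower in all 3 pairs, where 20.7% and 2.68% of all genes were. The counts of 1 stress-only and 0 control-only genes cannot change under the replicate block, which asks for the same libraries. For RNA, receptor genes past 1.2-fold higher and lower were 8 and 2 of 19 with a pseudocount of 0.1 (19.2% and 7.86% of all genes), 1 and 3 of 19 after centring (6.36% and 9.18%), 3 and 4 of 49 with no filter (7.60% and 4.19%), 3 and 4 of 35 with a minimum of 0.1 FPKM (12.1% and 6.70%), and 3 and 2 of 18 for the most abundant isoform (16.5% and 8.19%). Pathway genes past 1.2-fold higher and lower were 6 and 2 of 38 with a pseudocount of 0.1, and 4 and 3 of 58 with no filter. They were 4 and 3 of 45 with a minimum of 0.1 FPKM, and 5 and 2 of 38 for the most abundant isoform. After centring they were 0 and 2 of 38. The shares of all genes for each setting are those just given. The cause of these shifts was not tested. The peak lists give presence above a score and no counts, so differences in 5hmC below that score were not detectable.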
